A study of Rattus norvegicus with 21 samples.

Results

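Astrocytes are the glia that clear the transmitter glutamate from synapses, move water and ions around vessels, and keep a cytoskeleton of intermediate filaments that thickens when the tissue is injured, a state called reactive gliosis. The 6 genes described here are commonly used to follow these functions, and they were chosen by name and Ensembl rat gene ID from the 30560 IDs of the deposited table. Gfap (ENSRNOG00000002919) and Vim (ENSRNOG00000018087) encode the intermediate filament proteins, Vim being made by vessel cells too. S100b (ENSRNOG00000001295) encodes a calcium-binding protein of astrocytes and some oligodendrocyte lineage cells. Slc1a2 (ENSRNOG00000005479) and Slc1a3 (ENSRNOG00000016163) encode the main glial glutamate transporters, GLT1 and GLAST, and Aqp4 (ENSRNOG00000016043) encodes the water channel of astrocyte endfeet. All 6 were found and all 6 passed the filter on low values in both tissues. The table does not pair IDs with names, so the names rest on the list by which the genes were chosen.

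RNA-seq was made from bulk hippocampus and cerebral cortex of male SD rats with a wild-type label, 4 weeks old at the start and acclimated for 2 weeks. Exposed rats breathed air at the low pressure of a simulated 28000 ft, held for 5 min, in 6 cycles given every 3 days, and were sampled 24 h or 48 h after the final cycle. Control rats stayed at normal oxygen. Of 12 rats, 4 were controls and 8 were exposed, of which 1 was lost. Each tissue had 4 control libraries, 3 at 24 h and 3 at 48 h, and 1 more library with conflicting tissue labels was left out of all comparisons. The question was how each tissue differs 24 h and 48 h after repeated exposure, and the 2 tissues were also set against each other. Levels are given as normalized counts, that is, reads of a gene over the size factor of its library. They are not divided by transcript length, so levels are compared between libraries and not between genes. In bulk tissue, fewer cells of a type and less RNA per cell cannot be told apart.

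Library depth was 11214566 to 19304803 reads in genes, except for hippocampus control 1 with 4654096. Rows of the 6 genes held 192 to 55527 reads per library, and in the median library each stood at or above the 88.05th percentile of all genes. On a scale set by genes at least 4-fold apart between the tissues (the 6 genes left out), where the cortex median is 0 and the hippocampus median 1, 2 hippocampus libraries stood low, with 0.43 for control 2 and 0.56 for 24 h replicate 2. In turn 2 cortex libraries stood high, with 0.52 for control 3 and 0.32 for 24 h replicate 3. All others lay within 0.09 of their tissue's median. These 4 libraries and hippocampus control 1 are called the 5 doubted libraries, and many results are given with and without them. Because these 4 were picked for lying between the tissues, leaving them out favours differences between hippocampus and cortex. A tissue difference that passes only without them is therefore a description and no added support. Gene names were not available for markers of other cell types or of the 2 tissues, so the tissue labels were not checked against markers.

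Slc1a3, the transporter GLAST, differed between the tissues, and no hippocampus library reached the level of any cortex library. In hippocampus its normalized counts were 3401, 8806, 8133 and 6224 in controls, 8369, 5952 and 6895 at 24 h, and 6570, 5124 and 5836 at 48 h. In cortex they were 11371, 8880, 11751 and 11222 in controls, 9115, 10679 and 12314 at 24 h, and 11108, 11818 and 9069 at 48 h. The highest hippocampus library thus stood below the lowest cortex library, with 8806 against 8880, and both of these were control libraries. Such separation over all 20 libraries was found for 1.88% of 15017 genes. As CPM, which scale each library to the same total and use no size factor, the ranges were 169 to 658 in hippocampus and 671 to 1020 in cortex. Without the 5 doubted libraries the ranges of normalized counts were 5124 to 8133 in 7 hippocampus libraries and 8880 to 12314 in 8 cortex libraries.

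In the fit of all 20 libraries, the tissue difference of Slc1a3 averaged over the 3 exposure groups was -0.75 (log2, hippocampus minus cortex, SE 0.16, 95% interval -1.08 to -0.42), a level of 0.594 times that of cortex (limma adjusted p = 0.00223). This average was added after the values had been seen. Over its 31 alternatives the difference ran from -0.81 to -0.65, with adjusted p from 2.61e-05 to 0.0196. The same comparison called 21.8% of all genes at an adjusted p under 0.05 and put 33.9% under 0.05 unadjusted, so tissue differences of this kind were common. Within single exposure groups the difference was -0.78 in controls (SE 0.24, limma adjusted p = 0.0916), -0.60 at 24 h (SE 0.28, limma adjusted p = 0.313) and -0.87 at 48 h (SE 0.28, limma adjusted p = 0.0792). None of these 3 passed, with 2.9%, 1.8% and 5.29% of all genes called. Of the 6 genes, 2 had an unadjusted limma p under 0.05 in controls (Slc1a3 and S100b), 1 at 24 h (Slc1a3) and 1 at 48 h (Slc1a3), against 19%, 15.5% and 21% of all genes. Hippocampus and cortex came from the same study animals, which the labels do not tie to libraries.

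**Figure D1:**
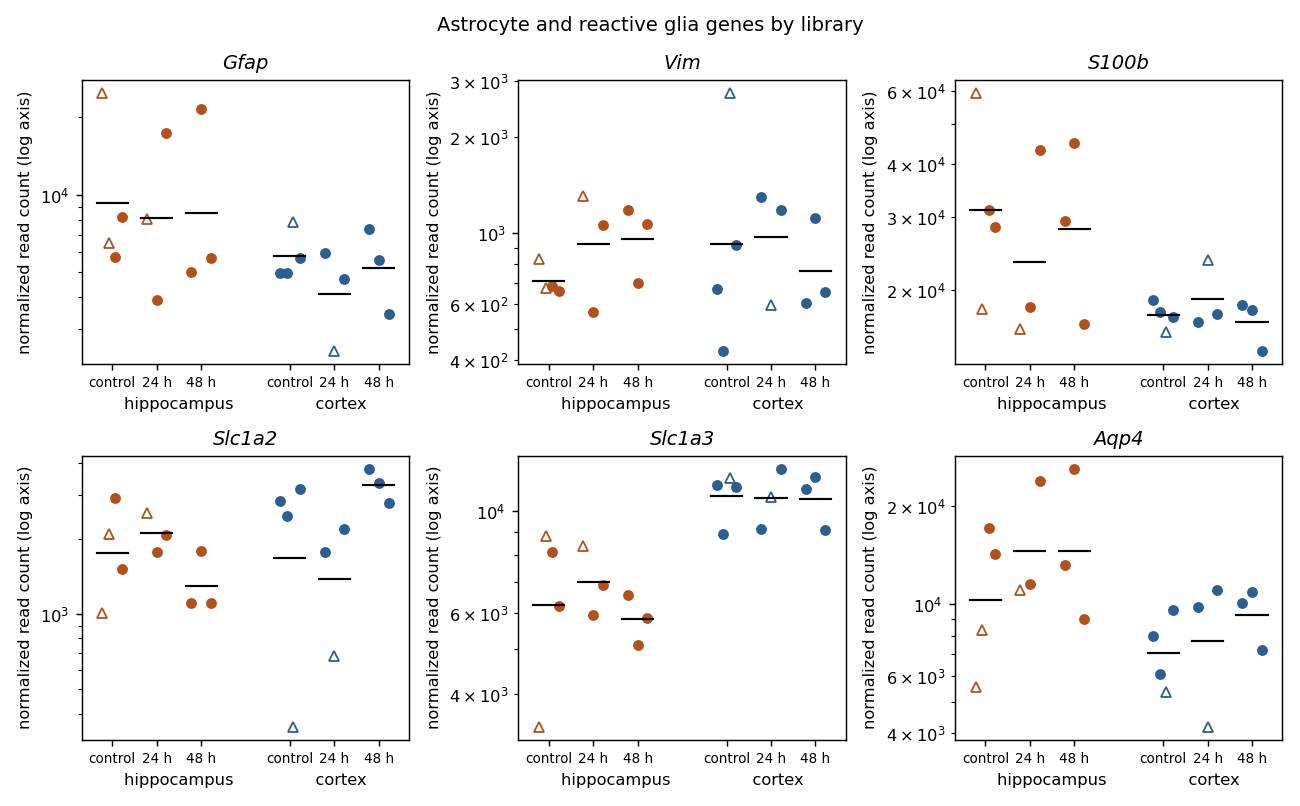
Normalized counts of the 6 genes in each library on a log axis, hippocampus in brown and cortex in blue, with open triangles for the 5 doubted libraries and filled circles for the others. Bars mark geometric means of 3 or 4 libraries, and in the Slc1a3 panel every hippocampus library, up to 8806, lies below every cortex library, from 8880.

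Slc1a2, the transporter that takes up most glutamate in the adult forebrain, did not share this pattern over the 3 groups. Its normalized counts in hippocampus were 1006, 2095, 2914 and 1520 in controls, 2540, 1770 and 2071 at 24 h, and 1109, 1784 and 1103 at 48 h. In cortex they were 2840, 2454, 355 and 3169 in controls, 1762, 682 and 2180 at 24 h, and 3803, 3322 and 2788 at 48 h. The lowest 2 values of all, 355 and 682, came from cortex control 3 and cortex 24 h replicate 3, which are the 2 doubted cortex libraries. The hippocampus minus cortex difference averaged over the groups was -0.22 (log2, SE 0.35, 95% interval -0.96 to 0.52, limma adjusted p = 0.701). Without the 5 doubted libraries it was -0.59 and passed (limma adjusted p = 0.0087), where 45.8% of all genes were called. At 48 h, where neither tissue has a doubted library, all 3 hippocampus libraries were below all 3 cortex libraries, as for 42% of all genes in one direction or the other. The difference there was -1.34 (log2, SE 0.64, 95% interval -2.67 to 0.00, limma adjusted p = 0.238). It was as large without the doubted libraries, which only supply the spread, and then passed (limma adjusted p = 0.00209), where 27.9% of all genes were called. In the fit of the 6 libraries of 48 h alone it passed too (limma adjusted p = 0.0102), with 2796 of 14909 genes called.

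The stretches before the start sites of both transporters and of Gfap are shown since the first 2 genes differ in how they sort the tissues and the third is the usual mark of reactive astrocytes. They run from 250 bases before to 50 after the RefSeq start (GRCr8) and were matched by symbol: Slc1a3 at chr2:59557759-59558058 on the minus strand (the first of 3 close start sites), Slc1a2 at chr3:109459859-109460158 on the plus strand (the first of 2) and Gfap at chr10:88361612-88361911 on the minus strand. Capitals mark matches, on either strand, to the letters of 6 motifs.
Slc1a3: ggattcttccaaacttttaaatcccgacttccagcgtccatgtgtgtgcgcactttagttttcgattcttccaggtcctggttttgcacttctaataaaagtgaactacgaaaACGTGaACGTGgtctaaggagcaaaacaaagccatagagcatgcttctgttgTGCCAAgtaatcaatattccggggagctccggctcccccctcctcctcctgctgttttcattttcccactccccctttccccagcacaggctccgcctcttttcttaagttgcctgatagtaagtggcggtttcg
Slc1a2: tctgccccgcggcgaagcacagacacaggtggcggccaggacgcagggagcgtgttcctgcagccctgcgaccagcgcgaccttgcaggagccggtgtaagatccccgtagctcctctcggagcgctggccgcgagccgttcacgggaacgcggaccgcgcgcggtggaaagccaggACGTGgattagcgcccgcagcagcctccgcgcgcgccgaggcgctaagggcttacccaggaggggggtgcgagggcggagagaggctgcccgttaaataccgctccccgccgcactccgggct
Gfap: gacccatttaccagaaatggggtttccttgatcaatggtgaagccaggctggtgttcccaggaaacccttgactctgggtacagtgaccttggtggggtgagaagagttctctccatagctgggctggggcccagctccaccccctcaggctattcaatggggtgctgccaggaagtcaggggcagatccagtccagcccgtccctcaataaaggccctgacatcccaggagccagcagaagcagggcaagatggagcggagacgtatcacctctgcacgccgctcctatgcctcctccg
The letters searched were ACGTG, the core of the hypoxia response element (present in 19.3% of 33469 promoters of this length), TTCNNNGAA for STAT factors (8.87%), TGANTCA for AP-1 (7.33%), AACAAT for SOX factors (11.7%), TGCCAA for NFI factors (14%) and TATAAA, the TATA box (14.2%). Slc1a3 held ACGTG with its first base at -137 and -131 from the start and TGCCAA at -85. Slc1a2 held ACGTG at -73, and Gfap held none of the 6. Outside those shown, Vim had TATAAA at -82, S100b had the reverse complement of TGCCAA at -37, and Aqp4 had no match in either of its 2 windows. Matches do not overlap one another, and they describe the letters only, without showing that a factor binds.

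S100b and Aqp4 had higher average levels in hippocampus, which did not pass in the limma fit of all 20 libraries. S100b had normalized counts of 59251, 18060, 31078 and 28349 in hippocampus controls, 16213, 18256 and 43253 at 24 h, and 29267, 44908 and 16624 at 48 h. Cortex held 18963, 17781, 15861 and 17250 in controls, 16789, 23649 and 17519 at 24 h, and 18491, 17993 and 14347 at 48 h. The cortex values were close to one another, with a highest over lowest of 1.65, against 3.65 in hippocampus. As CPM the ranges were 1070 to 1490 in cortex and 1280 to 3230 in hippocampus. The averaged difference between the tissues was 0.62 (log2, hippocampus minus cortex, SE 0.23, 95% interval 0.13 to 1.11, limma adjusted p = 0.0648), which did not pass. Without the 5 doubted libraries it was 0.72 and passed (limma adjusted p = 0.0171), in the fit that called 45.8% of all genes. That choice of libraries favours tissue differences.

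Aqp4 had 5550, 8297, 17163 and 14228 in hippocampus controls, 11083, 11526 and 24019 at 24 h, and 13178, 26125 and 9017 at 48 h. In cortex it had 7974, 6069, 5344 and 9604 in controls, 9784, 4190 and 11080 at 24 h, and 10057, 10930 and 7218 at 48 h. At 24 h the lowest hippocampus library, with 11083, stood barely above the highest cortex library, with 11080, and the ranges overlapped in controls and at 48 h. Its averaged difference was 0.71 (log2, SE 0.26, 95% interval 0.15 to 1.26, limma adjusted p = 0.0647), and 0.78 without the doubted libraries, where it passed in that same fit (limma adjusted p = 0.0157). Separation in one direction or the other was seen for Slc1a3 alone among controls (8.64% of all genes) and for Slc1a3 and Aqp4 at 24 h (29.4% of all genes).

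Gfap reached its highest values in 3 hippocampus libraries, 1 from each exposure group. Its normalized counts in hippocampus were 24943, 6467, 5710 and 8225 in controls, 8041, 3896 and 17328 at 24 h, and 4996, 21575 and 5672 at 48 h. In cortex they were 4960, 4987, 7845 and 5678 in controls, 5948, 2474 and 4706 at 24 h, and 7360, 5558 and 3428 at 48 h. The other 7 hippocampus libraries, at 3896 to 8225, lay within or near the cortex range of 2474 to 7845. The averaged difference between hippocampus and cortex was 0.80 (log2, SE 0.34, 95% interval 0.07 to 1.52, limma adjusted p = 0.109), and 0.58 without the doubted libraries (limma adjusted p = 0.217). It passed with edgeR (1.04, edgeR adjusted p = 0.041), where 3635 of 15017 genes were called. DESeq2 called it too (1.03, DESeq2 adjusted p = 0.0145), with 4473 of 14533 genes called.

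Vim had no difference between the tissues that stood out from its spread. Its normalized counts in hippocampus were 829, 673, 685 and 657 in controls, 1311, 567 and 1063 at 24 h, and 1182, 699 and 1068 at 48 h. Cortex gave 667, 428, 2752 and 917 in controls, 1297, 594 and 1183 at 24 h, and 606, 1113 and 652 at 48 h. The 2752 of cortex control 3, a doubted library, was the highest of all 20. The averaged difference was -0.04 (log2, hippocampus minus cortex, SE 0.28, 95% interval -0.63 to 0.55, limma adjusted p = 0.942). Over the 6 genes the averaged difference had a median of 0.29, against 0 over all genes, with 3 genes higher and 3 lower in hippocampus.

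**Figure D2:**
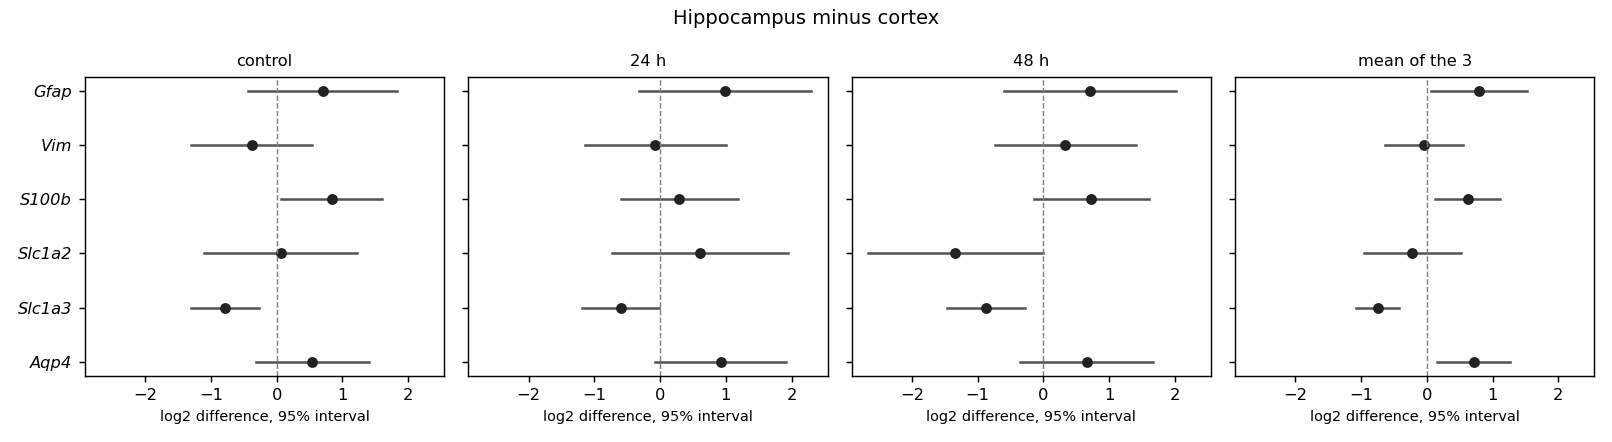
Hippocampus minus cortex difference of each gene (log2, points) with its 95% interval (lines) in controls, at 24 h, at 48 h and averaged over the 3 groups, from the fit of 20 libraries. Slc1a3 is below 0 in all 4 panels, with -0.75 in the average, while the intervals of Vim and Slc1a2 reach across 0 in the average.

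Ratios of reads between 2 of these genes within a library do not depend on the size factor. Over all libraries the ranges of the 2 tissues overlapped in each of the 6 ratios formed. The log2 ratio of S100b to Slc1a3 reads was 0.95 to 4.12 in hippocampus (median 2.04) and 0.43 to 1.15 in cortex (median 0.70). Without the doubted libraries the ranges separated, at 1.51 to 3.13 in hippocampus and 0.51 to 1.00 in cortex. Of the 5 left out, 4 were picked for lying between the tissues, which favours such separation. For Aqp4 to Slc1a3 the ratio was -0.09 to 2.35 in hippocampus (median 0.98) and -1.35 to 0.10 in cortex (median -0.28), and 0.63 to 2.35 against -0.55 to 0.10 without the doubted libraries. For Gfap to Slc1a3 it was -0.61 to 2.87 in hippocampus (median -0.05) and -2.11 to -0.58 in cortex (median -1.04), and without the doubted libraries the ranges still overlapped, at -0.61 to 2.07 in hippocampus and -1.40 to -0.59 in cortex. The ratio of Slc1a3 to Slc1a2 was 1.48 to 2.57 in hippocampus, with and without the doubted libraries, and 1.55 to 5.05 in cortex, or 1.55 to 2.50 without them. Vim to Gfap was -4.95 to -2.08 in hippocampus and -3.60 to -1.51 in cortex, and Gfap to S100b was -2.55 to -1.01 and -3.26 to -1.02. These ratios are given as a description, with no test.

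**Figure D3:**
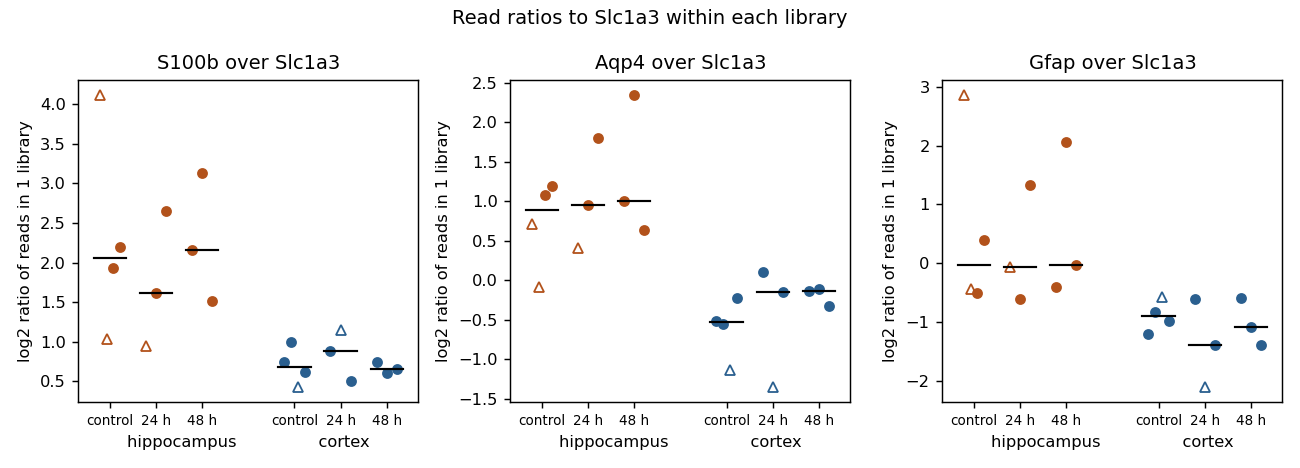
Log2 ratio of S100b, Aqp4 and Gfap reads to Slc1a3 reads within each library, hippocampus in brown and cortex in blue, with open triangles for the 5 doubted libraries and bars for group medians. For S100b and Aqp4 the filled hippocampus points, from 1.51 and 0.63, all lie above the filled cortex points, up to 1.00 and 0.10.

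After repeated exposure no change of any of the 6 genes was found in either tissue. limma called 0% of the 15028 genes tested in hippocampus and 0% of the 14783 in cortex, for 24 h against control, 48 h against control and 48 h against 24 h, and 0 of the 6 had an unadjusted limma p under 0.05. In that order of comparisons, 320, 241 and 25 of all genes in hippocampus and 1177, 515 and 1675 in cortex had an unadjusted limma p under 0.05. edgeR called 0 of all genes in each comparison. DESeq2 called 2, 3 and 1 of 14378 genes in hippocampus and 56, 2 and 174 of 14649 in cortex, with 0 of the 6 among them. In hippocampus the 6 genes had a median change of 0.22 (log2) at 24 h and -0.12 at 48 h against control, with 0.03 and 0.02 over all genes. In cortex their medians were 0.03 and -0.03, with -0.02 and 0.01 over all genes. The intervals were wide. For the 6 genes they extended by a median of 0.94 (log2) above and below the estimate in hippocampus and 0.76 in cortex, against 0.88 and 0.54 over all genes. Changes of 2-fold or more, up or down, fell outside the interval for 1 of the 6 genes at each time in hippocampus, Slc1a3, and for 3 of the 6 at each time in cortex.

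Gfap, which reactive astrocytes raise, averaged 11336 ± 9132 in hippocampus controls (SD, n = 4), 9755 ± 6878 at 24 h and 10748 ± 9383 at 48 h (SD, n = 3 each). Its changes against control were -0.19 at 24 h (log2, 95% interval -1.74 to 1.36, limma adjusted p = 0.934) and -0.14 at 48 h (95% interval -1.69 to 1.41, limma adjusted p = 0.974). Single libraries turned both: without hippocampus control 1 they were 0.28 and 0.34, and the first was 0.34 without 24 h replicate 3. Without 24 h replicate 4 the first was -0.74, and without 48 h replicate 2 the second was -0.81. In cortex Gfap averaged 5868 ± 1360 in controls (SD, n = 4), 4376 ± 1760 at 24 h and 5449 ± 1968 at 48 h (SD, n = 3 each). The change at 24 h was -0.49 (log2, 95% interval -1.24 to 0.27, limma adjusted p = 0.721), and 0.03 without the 2 doubted cortex libraries. Vim, the other filament gene, stood at 0.39 and 0.44 (log2) against control at 24 h and 48 h in hippocampus (limma adjusted p = 0.851 and 0.928). In cortex its changes were 0.07 and -0.28, and without the doubted libraries 0.95 and 0.25, neither of which passed (limma adjusted p = 0.256 and 0.838).

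The transporters held the largest and the smallest changes of the 6. Slc1a2 in cortex averaged 2205 ± 1267 in controls (SD, n = 4), 1541 ± 773 at 24 h and 3304 ± 508 at 48 h (SD, n = 3 each). All 3 libraries of 48 h were above all 3 of 24 h, as for 22.7% of all genes in one direction or the other. The difference of 48 h from 24 h was 1.25 (log2, SE 0.76, 95% interval -0.44 to 2.94, limma adjusted p = 0.569), and 0.74 without the doubted libraries (limma adjusted p = 0.156). Against control it was 0.97 at 48 h (95% interval -0.61 to 2.55, limma adjusted p = 0.885), which shrank to 0.22 without cortex control 3. At 24 h it was -0.28 against control (95% interval -1.86 to 1.30), and ranged from -1.02 without cortex control 3 to 0.23 without cortex 24 h replicate 3. With these 2 doubted libraries left out together it was -0.52 (log2, SE 0.17), which did not pass. In that fit 2 of the 6 genes, Slc1a2 and Vim, had an unadjusted limma p under 0.05. So did 2260 of all 14690 genes, of which 0 were called. In hippocampus the difference of 48 h from 24 h was -0.70 (log2, 95% interval -1.54 to 0.14, limma adjusted p = 1). No other member separated 2 exposure groups of a tissue, where 9.19%, 9.11% and 22.7% of genes did so in cortex and 4.07%, 3.42% and 3.97% in hippocampus (24 h against control, 48 h against control, 48 h against 24 h).

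Slc1a3 in cortex was nearly level over the 3 groups, with 10806 ± 1303 in controls (SD, n = 4), 10703 ± 1599 at 24 h and 10665 ± 1427 at 48 h (SD, n = 3 each). Both changes against control were -0.02 (log2), with 95% intervals of -0.41 to 0.38 at 24 h and -0.41 to 0.37 at 48 h. In hippocampus Slc1a3 changed by 0.17 at 24 h and -0.10 at 48 h (log2), with 95% intervals of -0.55 to 0.89 and -0.82 to 0.62. S100b in cortex was held almost as tightly, with changes of 0.13 (95% interval -0.28 to 0.54) and -0.05 (95% interval -0.46 to 0.36). In hippocampus its changes were -0.41 and -0.16, with intervals of -1.53 to 0.71 and -1.28 to 0.96, and -0.08 and -0.09 without the doubted libraries. Aqp4 stood at 0.50 (log2) against control at both times in hippocampus (limma adjusted p = 0.851 and 0.928), and at 0.09 and -0.10 without the doubted libraries. In cortex Aqp4 had 0.12 and 0.39 (limma adjusted p = 0.946 and 0.885). Without the doubted libraries these were 0.43 and 0.26 (limma adjusted p = 0.392 and 0.764).

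**Figure D4:**
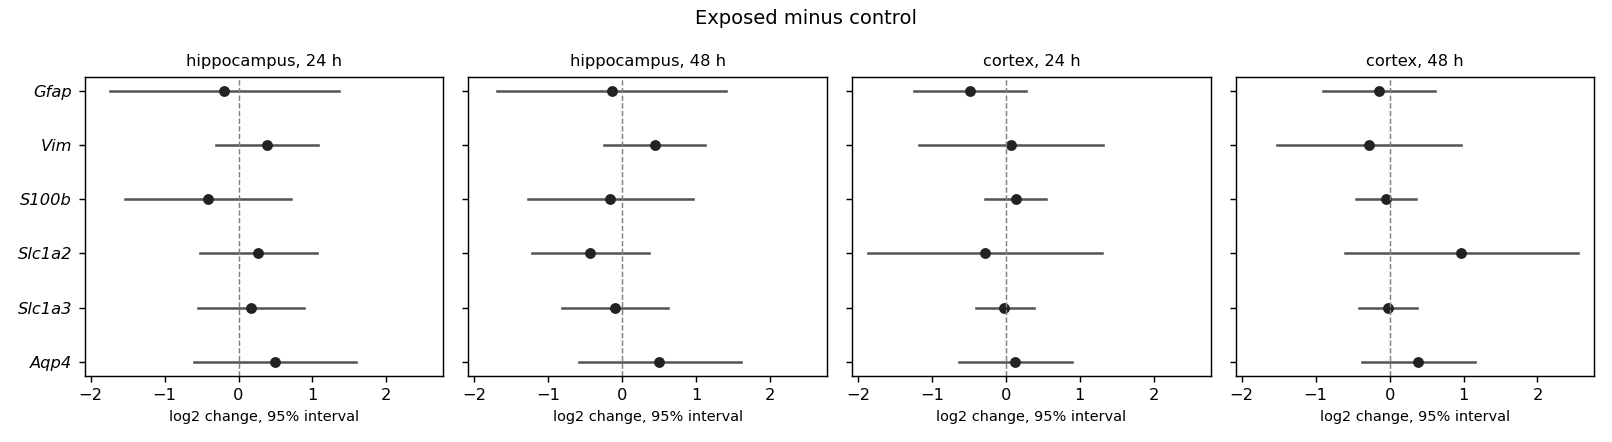
Change of each gene against control (log2, points) with its 95% interval (lines) in hippocampus and cortex at 24 h and 48 h. All 24 intervals reach across 0, and the narrowest are those of S100b and Slc1a3 in cortex, with -0.41 to 0.38 for Slc1a3 at 24 h.

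Whether the tissues responded differently was tested with an interaction term, and limma called 0% of 15017 genes at 24 h and 0% at 48 h. Of the 6 genes, 0 had an unadjusted limma p under 0.05, against 522 of all genes at 24 h and 198 at 48 h, and edgeR and DESeq2 called 0 of all genes. The members' differences in response had a median of 0.30 (log2) at 24 h and -0.04 at 48 h, against 0.07 and 0.01 over all genes. The member farthest from 0 was Slc1a2 at 48 h, with a difference in response of -1.40 (log2, hippocampus minus cortex, SE 0.84, 95% interval -3.17 to 0.37, limma adjusted p = 0.998). It ran from -1.71 without cortex control 4 to -0.65 without cortex control 3. For Gfap the difference in response was 0.29 at 24 h (95% interval -1.44 to 2.03) and 0.01 at 48 h (95% interval -1.72 to 1.74). Single libraries moved both, from -0.25 without hippocampus 24 h replicate 4 to 0.83 without 24 h replicate 3 for the first, and from -0.66 without hippocampus 48 h replicate 2 to 0.49 without hippocampus control 1 for the second.

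The 6 genes were unlike in how much they varied between libraries of one group. In cortex the SD within groups (log2) was 1.10 for Slc1a2 and 0.86 for Vim, at the 95.6th and 91.4th percentile of all genes, against 0.19 for S100b and 0.20 for Slc1a3, at the 21.5th and 22.9th. Without the doubted libraries Slc1a2 came to 0.21 and Vim to 0.46, with 0.21 as the median of all genes. In hippocampus the SD was 1.06 for Gfap, 0.73 for S100b and 0.72 for Aqp4, and without the doubted libraries Gfap stood at 1.14, the 95.1th percentile. Gfap in hippocampus thus varied as much without the doubted libraries, and Slc1a2 in cortex did not.

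Within a tissue, libraries were also compared over the 15 pairs of these genes, giving 30 correlations of log2 values with 10 libraries each (two-sided permutation tests, adjusted over the 30). In hippocampus 3 and in cortex 1 had an unadjusted p under 0.05 for r, and 0 passed in either tissue after adjustment. Of the 3 in hippocampus, S100b with Slc1a3 had r = -0.63 (permutation p = 0.0455, adjusted p = 0.341), and r = -0.35 without hippocampus control 1. S100b and Aqp4 in hippocampus had r = 0.26 (permutation p = 0.468, adjusted p = 0.805) and rho = 0.39 (permutation p = 0.263, adjusted p = 0.853), and r = 0.96 without the 2 libraries farthest from the S100b median. Hippocampus control 1, doubted for its few reads, had the highest S100b at 59251 and the lowest Aqp4 at 5550. As CPM its Aqp4 was again the lowest in hippocampus, at 276, but its S100b of 2950 was below the 3230 of 48 h replicate 2. Over the 9 hippocampus libraries without control 1 r was 0.94, and over the 7 that are not doubted it was 0.96. Because the library left out is also the one that goes against the relation, these values are a description with no p. With all 10 libraries centred on their group means r was 0.38. In cortex the same pair had r = -0.33 (permutation p = 0.363, adjusted p = 0.805).

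Slc1a2 and Slc1a3 in hippocampus had r = 0.73 (permutation p = 0.0116, adjusted p = 0.174), rho = 0.78 (permutation p = 0.0108, adjusted p = 0.325) and r = 0.55 without the 2 libraries farthest from the Slc1a2 median. Hippocampus control 1 was the lowest hippocampus library in both genes. Without it r was 0.63 (permutation p = 0.0723), and without the doubted libraries 0.53 (permutation p = 0.213). No r over all libraries is given for Gfap in hippocampus or for Slc1a2 in cortex, because 3 hippocampus libraries with Gfap of 17328 to 24943 and 2 cortex libraries with Slc1a2 of 355 and 682 lay apart from the rest. The permutation p-values of such pairs rest on those same libraries too, and are no support for a relation. Of these pairs, Gfap with S100b in hippocampus had the smallest unadjusted p of its tissue (permutation p = 0.0061, adjusted p = 0.174), with r = 0.56 without the 2 libraries farthest from the Gfap median. That r still includes 24 h replicate 4, 1 of the 3 libraries with high Gfap. With all 3 left out r was 0.0. Slc1a2 with Aqp4 had the smallest unadjusted p in cortex (permutation p = 0.0184, adjusted p = 0.184), with r = 0.09 without the 2 libraries farthest from the Slc1a2 median. The 3 hippocampus libraries with the highest Gfap, control 1, 24 h replicate 4 and 48 h replicate 2, were also the 3 highest in S100b, at 59251, 43253 and 44908. The second and the third of them were the 2 highest in Aqp4, at 24019 and 26125, and the first was the lowest. Their places on the tissue scale were 0.94, 1.08 and 1.08, the last 2 being the highest of all, and the part of dissection in these values was not tested.

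**Figure D5:**
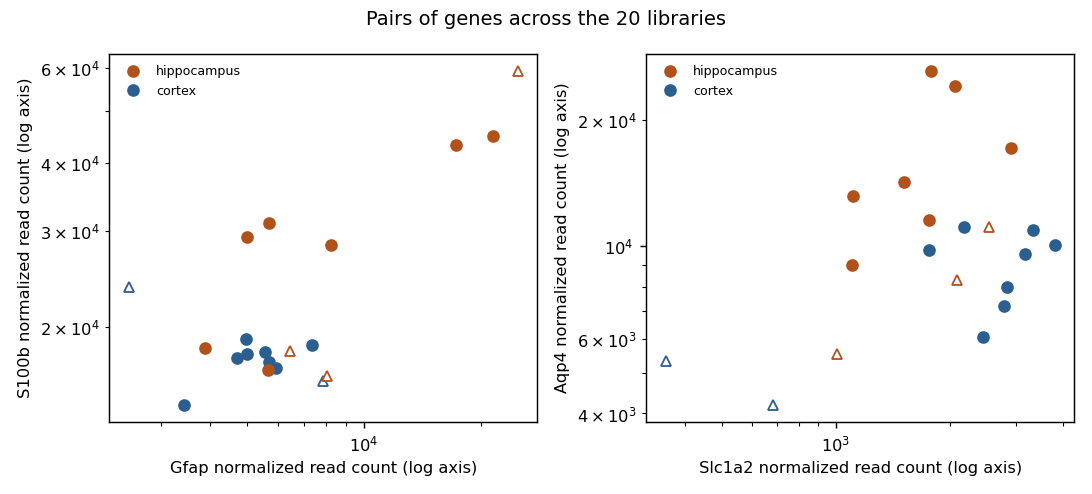
S100b against Gfap and Aqp4 against Slc1a2 in the 20 libraries as normalized counts on log axes, hippocampus in brown, cortex in blue and open triangles for the 5 doubted libraries. The 3 hippocampus libraries with Gfap of 17328 or more lead in S100b as well, and the 2 cortex triangles at 355 and 682 hold the lowest Slc1a2 and the lowest Aqp4, at 5344 and 4190.

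Ordered by mean log2 level over the 6 groups, neighbouring groups overlapped in all 5 steps for Gfap, Vim, S100b and Aqp4. For Slc1a3 the order was cortex control, 24 h and 48 h, then hippocampus 24 h, control and 48 h, and the step between the tissues was the only 1 of the 5 without overlap. For Slc1a2 the step without overlap lay between cortex 48 h, lowest library 2788, and hippocampus 24 h, highest library 2540.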

How the data were processed

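RNA was extracted with TRIzol and made into stranded mRNA libraries, per the labels' protocols. fastp 0.20.0, HISAT2 2.1.0 and featureCounts 2.0.1 are named in the submitters' processing notes, and the build, annotation and strand setting were not given there or elsewhere in the sources used. The signal in the table deposited by the authors is the number of reads of a gene over the size factor of the library. Each of the values was within 0.001 of a whole multiple of 1 read (100%), and all 21 columns matched a sample. Scaling by a size factor removes a shift shared by most genes.

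limma 3.58.1 (R 4.3.3) was applied to log2(value + 1) (intensity trend, two-sided, Benjamini-Hochberg over all genes tested, threshold 0.05) for genes averaging 10 or more, and folds on this scale understate changes of low genes. Exposure contrasts used the 10 libraries of 1 tissue, and tissue and interaction contrasts used all 20 libraries. edgeR 4.0.16 and DESeq2 1.42.0, on the recovered reads, were alternatives, besides other pseudocounts, no filter, TMM and quantile scaling, no trend, library weights, other sets of libraries, a replicate block and leaving out each library. Tests were checked on simulated counts without libraries like the doubted ones, so the check does not show how they perform on these data. Correlations used 100000 permutations in scipy 1.17.1.

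The members, gene lists and tests were chosen with earlier results of these data known. The contrast averaging 3 groups was added after seeing the values. Besides the 6 members, the rule for named genes took the 2 IDs most and the 2 least correlated with them. The marker lists of astrocytes, reactive astrocytes and other cell types were not used here, since IDs could not be paired with symbols. Counts of 2 libraries of a group never agreed within sampling noise (chi-square over its degrees of freedom was 15.6 to 265 in 24 pairs), so none was counted as a repeat. The labels describe separate rats but do not tie a library to a rat. The library titled hippocampus and labelled cortex stayed unassigned.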

Additional observations from a re-analysis of the deposited data

Results flagged for a closer look

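Hippocampus control 1, the library with the fewest reads, stood apart from the other 3 hippocampus controls in 2 of the 6 genes. Gfap had 24943 normalized counts there, against 5710 to 8225 in the others, and 1240 CPM (reads scaled to equal library totals) against 419 to 633. Vim had 829 normalized counts there, against 657 to 685 in the others. As CPM the order turned round, with 41.3 in this library and 48.5 to 50.6 in the others, so that the excess of Vim is present on the scale of the size factors and not on that of CPM. In all, 12 sets of 4 values (6 genes in the controls of both tissues) were looked at in this way, and chance alone gives about 1 in 20. Groups of 3 libraries were not looked at.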

How the results depend on the processing

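Over 1542 recomputed member values, 1510 kept their side of the threshold, 32 passed it newly and 0 lost it, and 142 values that had not passed changed sign. Only 1 main value had passed, the averaged tissue difference of Slc1a3, so only its 31 alternatives could have lost the threshold. All exposure and interaction comparisons kept 0 called members under every alternative run. Over all genes, calls in these comparisons were most numerous for cortex 48 h against 24 h with library weights, with 1335 of 14783 genes. In that comparison DESeq2 called 174 of 14649, and limma without the doubted libraries called 5 of 14690. The number of members called between the tissues did move, and the number of all genes called in the same fit is given in brackets. In controls it was 0 (436 of 15017), and 3 with library weights (3785), 1 with DESeq2 (1527 of 14533) and 0 to 1 when each library was left out, with Slc1a3 called without hippocampus control 2 (1349 of 15011). At 24 h it was 0 (270), and 1, Slc1a3, with library weights (3479) and again when the doubted libraries were left out (2327 of 14868). At 48 h it was 0 (795), and 3 with library weights (6169), 1 with DESeq2 (1936 of 14533), 2 in the fit of the groups compared only (2796 of 14909) and 2 without the doubted libraries (4148 of 14868). For the average of the 3 groups it was 1 (3269), and 3 with library weights (7742), 4 with edgeR (3635), 4 with DESeq2 (4473 of 14533), 4 without the doubted libraries (6812 of 14868) and 1 to 3 when each library was left out. Left out singly, hippocampus control 1 gave 2 (Aqp4 added, 4883 of 14939), hippocampus control 2 and 24 h replicate 2 gave 2 (S100b added, 3979 of 15011 and 3278 of 15005), and hippocampus 48 h replicate 3 gave 3 (both added, 3239 of 14994). The 4 called by edgeR and by DESeq2 in this average were Slc1a3, Gfap, S100b and Aqp4. The cause of these shifts in number was not tested. Correlations that passed in hippocampus numbered 0, and 1 without hippocampus control 1, which was S100b with Aqp4. Since that library goes against this relation, the pass is no support for it. The pair did not pass without the doubted libraries.

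Same-numbered libraries deviated together (r over 0.1) in 3 of 10 pairs between the tissues, 4 of 8 in cortex and 4 of 8 in hippocampus. The values of r ran from -0.29 to 0.14, -0.23 to 0.23 and -0.49 to 0.34, in that order. Pairs within a tissue join different exposure groups, and so different rats. Pairs between the tissues cannot settle whether same-numbered libraries came from the same rat, since the group means rest on few libraries, some of them doubted. The main fits treat the libraries as unpaired. With a replicate block the averaged tissue comparison called 2 members, Slc1a3 (-0.75, limma adjusted p = 0.014) and Aqp4 (0.71, limma adjusted p = 0.0489), among 2579 of 15017 genes (17.2%). The other comparisons with the block called 0 members. Of all genes, the block called 561 of 15017 (3.74%) between the tissues at 48 h and 0 at 24 h. Over all genes the count between control tissues was 436, and 2 with the block and 2542 without the doubted libraries. Depth behind a member was at least 192 reads in any library.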

Other observations

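The library with conflicting labels, left out of all comparisons, lay at 0.90 on the tissue scale, near the hippocampus end. It had normalized counts of 8098 for Gfap, 1169 for Vim, 21630 for S100b, 2147 for Slc1a2, 7493 for Slc1a3 and 11388 for Aqp4. Each lay within the range of the 8 control libraries of both tissues.

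Of 14419 other genes, ENSRNOG00000000805 and ENSRNOG00000003237 followed the 6 genes most closely, with a mean r of 0.38 and 0.37 over the 6 genes and both tissues (10 libraries each). ENSRNOG00000019325 and ENSRNOG00000030445 ran most against them, with -0.38 and -0.35. These 4 IDs are the extremes of many, and their values are a description only.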
